A study of Homo sapiens with 6 samples.

Results

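The genes described here make up the protein folding and quality control system of the endoplasmic reticulum (ER), followed in Capan-1 cells after silencing of GNE. They are 41 genes, chosen by name: the ER chaperones and their cofactors, the enzymes of disulfide formation, the lectin chaperones, the IRE1 and ATF6 branches of the unfolded protein response, the ER-associated degradation (ERAD) pathway and the SEC61 channel. Each gene was represented by 1 probe set assigned to that gene alone, the one with the highest mean over the 6 arrays, with a probe set prone to cross-hybridisation (marked _x_at) used only where the gene had no other. Of the 41, 37 had such a probe set and 36 were tested, among 10731 tested genes in all. PDIA5, TXNDC5 and SYVN1 had only a probe set shared with a second gene, and SEC61G had no probe set under its name. DERL3 read between 3.12 and 3.17 on all 6 arrays, close to the array median of about 3, and was not tested.

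Capan-1 is an established human pancreatic carcinoma line. GNE encodes the bifunctional enzyme that starts sialic acid synthesis from UDP-GlcNAc. In the siGNE group 3 samples were transfected with siRNA against GNE, and in the control group 3 received the siRNA that the labels call allStar. Both groups had 2 transfections with an interval of 48 h and were harvested 72 h after the second, and neither group was left untransfected. The labels number the samples 1 to 3 in each group, and a pair below is the siGNE and the control array with one number. Nothing in them says that samples of one group are separate cultures, so the p-values speak only of sample-to-sample spread, possibly technical. They do not say how many siRNA sequences against GNE were used. In bulk RNA such as this, fewer cells expressing a gene and less RNA per cell cannot be told apart.

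GNE itself read 11.12, 11.47 and 10.86 (log2) on control arrays 1 to 3 and 8.39, 9.86 and 9.57 on siGNE arrays 1 to 3, a fall of 1.88 (SE 0.29, limma adjusted p 0.0348 with the replicate block). All 10 epithelial and ductal markers examined were above 4, the limit for testing, with array means from 6.75 to 15.3. Of these, CEACAM5 rose in the same fit, by 0.56 (SE 0.11, limma adjusted p 0.0491, and 0.423 without the block), and the others did not pass. CEACAM5 was higher in every pair, by 0.79, 0.37 and 0.53. None of the 3 leukocyte, 4 endothelial or 4 acinar and islet markers measured was above 4. Of 6 fibroblast markers only COL1A1, a collagen chain, was, and it rose in the same fit, by 0.71 (SE 0.13, limma adjusted p 0.0441, and 0.512 without the block), being higher in every pair by 0.997, 0.42 and 0.70. The summed level of that list ran from 7.72 to 8.90 in control and from 8.33 to 9.30 in siGNE cells (log2), and its part in the changes below was not tested.

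Proteins enter the ER through the SEC61 channel and are folded there by the HSP70-class chaperone HSPA5 (BiP), its cofactors, the disulfide isomerases and the calnexin and calreticulin lectins. Proteins that fail to fold are extracted and degraded by ERAD. When unfolded protein accumulates, the membrane sensors IRE1 (ERN1), ATF6 and PERK (EIF2AK3) raise the transcription of chaperone and ERAD genes, IRE1 by splicing XBP1 mRNA, ATF6 by being cut in the Golgi to release a transcription factor, and PERK by way of ATF4 and CHOP (DDIT3).

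The DNA elements through which this system is known to be induced were looked for in promoter windows of 300 bases (250 before to 50 after a listed start of the gene, RefSeq, build GRCh38.p14), which existed for 38 of the 41 genes. The ER stress response element (ERSE, CCAAT and CCACG with 9 bases between) is bound by ATF6 with NF-Y. ERSE-II has ATTGG and CCACG with 1 base between. The core of the unfolded protein response element (UPRE) is TGACG followed at once by TGG, and the composite element of ATF4 with C/EBP factors (CARE) has TGATG and AA with 1 base between. Both strands were searched, and the CCACG part is common to ERSE, ERSE-II and, read on the other strand, the UPRE core, so matches can overlap. An ERSE was present in 7 of 38 members (18.4%), against 0.0769% of 35114 promoter windows, and ERSE-II in 3 (7.89%) against 0.0541%. The UPRE core was in 3 (7.89% against 0.729%) and CARE in 1 (2.63% against 3.62%). For the 6 members with several windows the first listed was used, and for CANX and PDIA6 it lay at a start inside the gene, 20273 and 5227 bases from the outermost one. With all windows counted, PDIA6 also had an ERSE and TXNDC5 a UPRE core. A match is a description of letters and not a measured binding site.

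The ERSE matches are shown because the genes that carry them can be followed through the results. Capitals mark the CCAAT and CCACG parts, and each site is written in the direction of the element. HSP90B1 had 2.
XBP1: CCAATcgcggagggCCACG
HSP90B1: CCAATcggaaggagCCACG
HSP90B1: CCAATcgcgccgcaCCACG
HSPA5: CCAATcggcggcctCCACG
CRELD2: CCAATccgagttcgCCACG
ERO1B: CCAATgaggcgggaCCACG
CANX: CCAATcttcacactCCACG
CALR: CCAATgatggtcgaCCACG

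The ERSE-II matches follow in the same way, with ATTGG and CCACG in capitals. HYOU1 had 2.
HYOU1: ATTGGaCCACG
HYOU1: ATTGGaCCACG
SDF2L1: ATTGGtCCACG
HERPUD1: ATTGGgCCACG

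Full windows are shown for the members with the largest changes, CLGN and HERPUD1, for MANF, the only member that fell, and for HSPA5, the best known ERSE gene. Capitals mark any match to the 4 elements. The windows lie at chr4:140427599-140427898 (minus strand), chr16:56931892-56932191 (plus strand), chr3:51385041-51385340 (plus strand) and chr9:125241294-125241593 (minus strand). In HERPUD1 the first match is CARE, at positions -176 to -169 from the start, and the second is ERSE-II. CLGN and MANF had no match to any of the 4 in these windows.
CLGN: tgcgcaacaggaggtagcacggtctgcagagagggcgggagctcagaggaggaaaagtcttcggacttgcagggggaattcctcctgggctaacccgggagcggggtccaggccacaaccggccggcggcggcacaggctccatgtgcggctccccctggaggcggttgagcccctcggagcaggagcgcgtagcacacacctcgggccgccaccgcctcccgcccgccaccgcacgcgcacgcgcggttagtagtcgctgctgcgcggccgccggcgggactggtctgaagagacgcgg
HERPUD1: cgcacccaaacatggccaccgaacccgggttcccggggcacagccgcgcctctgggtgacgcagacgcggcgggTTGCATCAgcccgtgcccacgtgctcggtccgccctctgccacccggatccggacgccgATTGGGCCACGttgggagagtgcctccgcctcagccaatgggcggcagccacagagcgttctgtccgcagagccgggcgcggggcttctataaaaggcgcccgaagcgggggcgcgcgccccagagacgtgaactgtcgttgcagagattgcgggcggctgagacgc
MANF: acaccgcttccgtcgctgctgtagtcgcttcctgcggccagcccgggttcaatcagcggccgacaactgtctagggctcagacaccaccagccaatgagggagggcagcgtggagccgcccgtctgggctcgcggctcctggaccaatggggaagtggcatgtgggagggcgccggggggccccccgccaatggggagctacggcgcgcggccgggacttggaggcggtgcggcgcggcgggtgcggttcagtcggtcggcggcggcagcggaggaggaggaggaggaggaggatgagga
HSPA5: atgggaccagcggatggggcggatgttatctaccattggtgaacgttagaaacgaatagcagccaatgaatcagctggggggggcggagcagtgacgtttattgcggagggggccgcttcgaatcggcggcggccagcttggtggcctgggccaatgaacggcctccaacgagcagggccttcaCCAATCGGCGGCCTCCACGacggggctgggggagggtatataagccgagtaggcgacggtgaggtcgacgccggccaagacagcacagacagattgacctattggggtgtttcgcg

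After GNE silencing 4 of the 36 tested members rose and 1 fell. The calnexin homologue CLGN, the ERAD factor HERPUD1, the sensor ERN1 and the ERAD lectin-like mannosidase EDEM1 rose, by 2.68, 0.80, 0.61 and 0.50 on the log2 scale. MANF, an ER-lumenal protein that binds HSPA5 and is secreted under stress, fell by 0.43. The 4 rises are 11.1% of the tested members, against 4.11% of all 10731 tested genes, and the single fall is 2.78% against 5.79%. The members were chosen with earlier results of these data known, so these shares are a description and not a test of the list. At an unadjusted p under 0.05 there were 9 members (25.0%), below the 32.5% of all tested genes. The rises include CLGN, which exceeded the limit for testing only through its siGNE values and so had to differ. The median difference was 0.01 over the members and -0.02 over all tested genes, and 19 members were above 0 and 17 below.

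All these calls come from limma with the replicate number as a block, with p adjusted over 22085 probe sets, and 2 of them lie close to the threshold of 0.05 (ERN1 at 0.0476 and MANF at 0.0474). Without the block 0 members passed in limma, where 5 had an unadjusted p under 0.05, the lowest adjusted p was 0.0906 and only 0.028% of tested genes passed. In 4 members all siGNE values lay above all control values (11.1%, against 9.42% of tested genes), and in 4 they lay below (11.1%, against 13.9%).

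**Figure D1:**
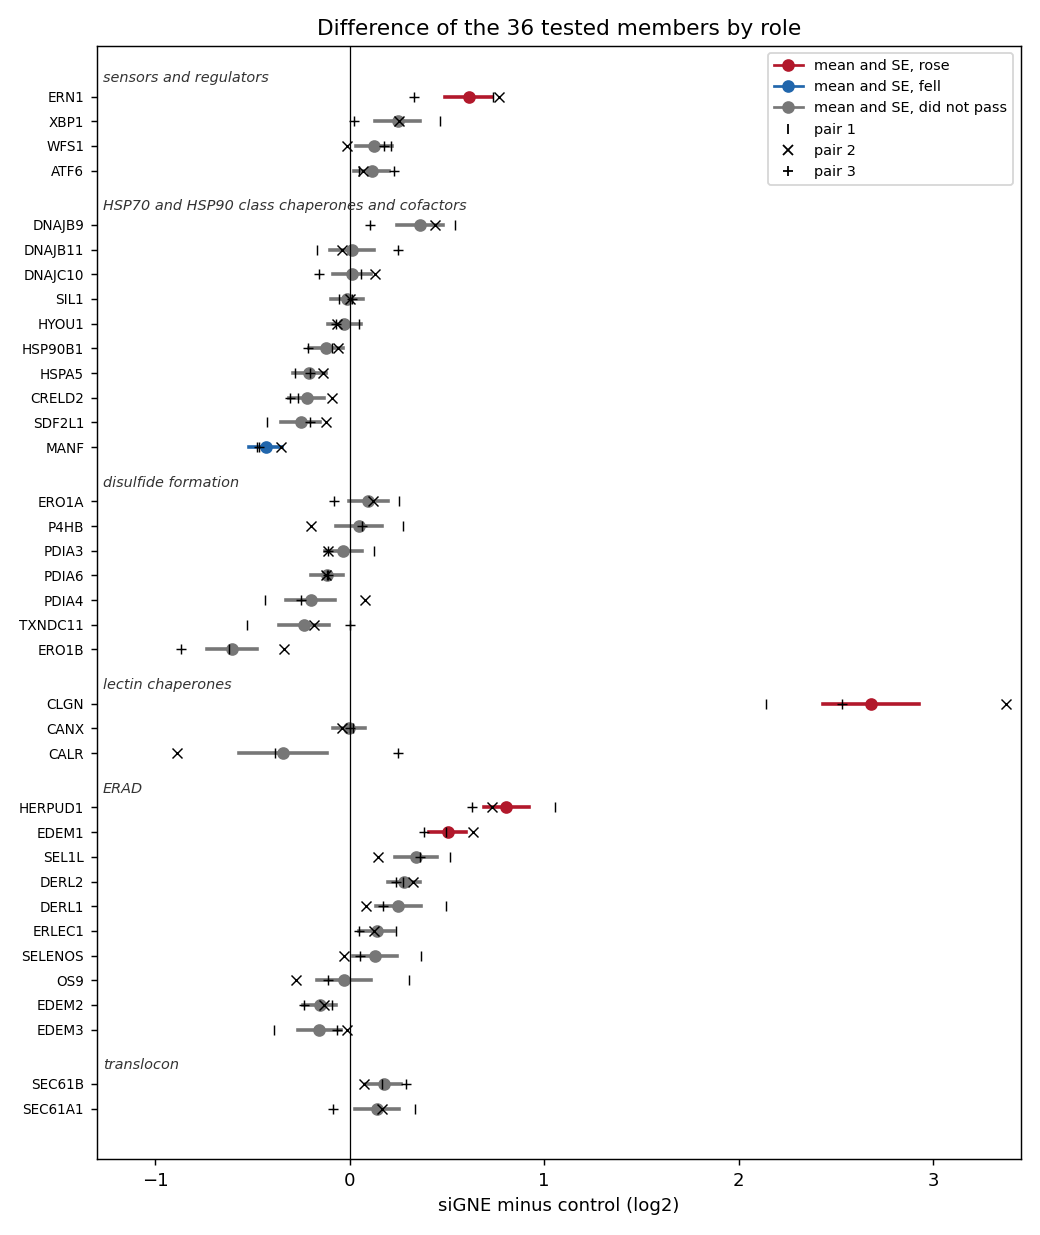
Difference between siGNE and control (log2, horizontal axis) for the 36 tested members in their 6 role groups. Coloured points with bars are the mean and its SE from the limma fit with the replicate block, and black symbols are the 3 pairs. CLGN stands at 2.68, HERPUD1, ERN1 and EDEM1 between 0.50 and 0.80, MANF at -0.43, and the other 31 members between -0.61 and 0.36.

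Of the sensors and regulators, ERN1 was the only one of 4 to rise. ERN1 encodes IRE1, the kinase and endonuclease that splices XBP1 mRNA. It read 7.44, 7.46 and 7.59 on control arrays 1 to 3 and 8.18, 8.22 and 7.92 on the siGNE arrays, so all siGNE values were above all control values. The difference was 0.61 (SE 0.12, limma adjusted p 0.0476), or 1.53-fold, and it was 0.74, 0.77 and 0.33 in pairs 1 to 3. A second ERN1 probe set, with a lower signal (4.68 to 4.87 in control and 5.50 to 5.65 in siGNE cells), rose by 0.79 (SE 0.10, limma adjusted p 0.0281).

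XBP1, the transcription factor downstream of IRE1, read 11.77, 12.04 and 11.75 in control and 12.23, 12.29 and 11.78 in siGNE cells. It was higher in every pair, by 0.47, 0.25 and 0.02, but did not pass (0.25, SE 0.12, limma adjusted p 0.219). The total level of XBP1 mRNA does not show how much of it is spliced. ATF6, the sensor of the second branch, read 9.61, 9.47 and 9.33 in control and 9.66, 9.53 and 9.55 in siGNE cells (0.11, SE 0.09, limma adjusted p 0.434). Its other 3 tested probe sets went the other way, at -0.16, -0.14 and -0.30, and none of the 4 passed. WFS1, an ER membrane protein that restrains ATF6, differed by 0.13 (SE 0.09).

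Of the HSP70 and HSP90 class chaperones and their cofactors, 0 of 10 rose and 1 fell in limma. In the same fit 4.11% of all tested genes rose and 5.79% fell, so these counts do not set the group apart. An unadjusted p under 0.05 was found in 2 of the 10, a smaller share than the 32.5% of all tested genes. The group's median was -0.08, with 7 members below 0 (70.0%, against 53.0% of all tested genes), and 5 of the 10 were lower in all 3 pairs, against 30.9% of all tested genes. MANF read 11.35, 11.29 and 11.30 in control and 10.87, 10.94 and 10.84 in siGNE cells. The groups did not overlap, and the SD within each was small (0.03 and 0.05). The difference of -0.43 (SE 0.09, limma adjusted p 0.0474) left 74.1% of the control level.

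HSPA5, the central chaperone and the repressor of all 3 sensors at rest, read 14.50, 14.37 and 14.24 in control and 14.22, 14.23 and 14.04 in siGNE cells. All siGNE values were below all control values, but the difference of -0.21 (SE 0.09) did not pass (limma adjusted p 0.176). Its other probe set, of lower signal, read 7.12, 7.31 and 6.57 in control and 6.04, 6.33 and 6.01 in siGNE cells and fell by 0.87 (SE 0.13, limma adjusted p 0.0337). Both HSPA5 probe sets were thus on the lower side in every pair, and only the weaker one was called.

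The other chaperone genes with an ERSE or ERSE-II did not pass. HSP90B1 (GRP94), the ER form of HSP90, was measured only by probe sets prone to cross-hybridisation and read 12.77, 12.69 and 13.34 in control and 12.68, 12.63 and 13.13 in siGNE cells (-0.12, SE 0.09). The nucleotide exchange factor HYOU1 differed by -0.03 (SE 0.08), CRELD2 by -0.22 (SE 0.09) and SDF2L1, which works with DNAJB11, by -0.25 (SE 0.10). The limma adjusted p of these 4 genes ran from 0.167 to 0.846. In SDF2L1 all siGNE values lay below all control values.

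DNAJB9 (ERdj4), a cochaperone that brings HSPA5 to IRE1, was the member of this group with the largest difference upwards. It read 8.30, 7.92 and 7.88 in control and 8.84, 8.36 and 7.98 in siGNE cells, higher by 0.54, 0.44 and 0.10 in the pairs, and did not pass (0.36, SE 0.12, limma adjusted p 0.115). Its other tested probe sets stood at 0.24 and 0.57 and did not pass either. DNAJC10 (ERdj5), a reductase that opens disulfides before degradation, read 11.34, 11.34 and 11.66 in control and 11.40, 11.46 and 11.50 in siGNE cells (0.01, SE 0.10). Its 3 other tested probe sets differed by 0.02, -0.07 and -0.95, none of them passing. DNAJB11 (0.01, SE 0.11) and the exchange factor SIL1 (-0.01, SE 0.08) lay at 0 within their error.

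**Figure D2:**
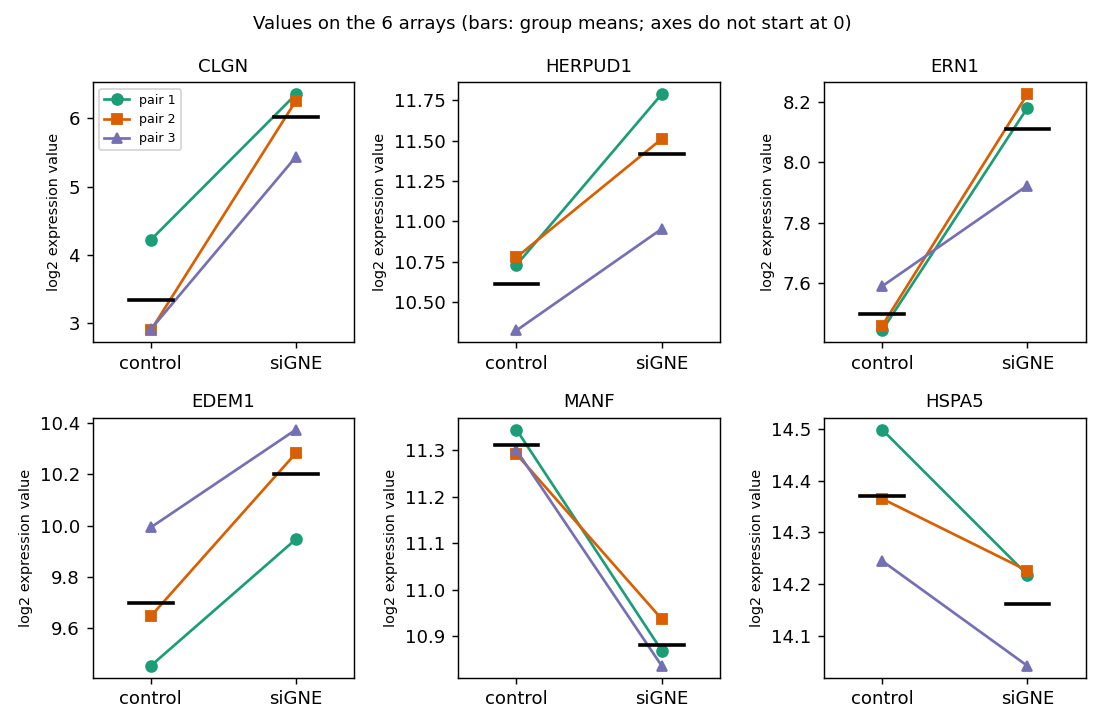
Log2 expression values (vertical axes, which do not start at 0) of the 5 members that passed and of HSPA5 on the 6 arrays. Lines join the control and siGNE arrays of a pair, and black bars are group means. The lines of CLGN, HERPUD1, ERN1 and EDEM1 all go up, and those of MANF and HSPA5 all go down.

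Among the enzymes of disulfide formation, 0 of 7 tested members rose or fell in limma, where 4.11% of all tested genes rose and 5.79% fell. In the same fit 1 had an unadjusted p under 0.05 (14.3%, against 32.5% of all tested genes). The median was -0.12. The isomerases lay close to 0, with P4HB at 0.05 (SE 0.12), PDIA3 at -0.03 (SE 0.10), PDIA6 at -0.12 (SE 0.08) and PDIA4 at -0.20 (SE 0.13). PDIA6 read 12.81, 12.58 and 13.15 in control and 12.69, 12.46 and 13.03 in siGNE cells, and its other 3 tested probe sets lay between -0.10 and 0.02.

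The oxidases ERO1A and ERO1B recharge the isomerases. ERO1A, the widely expressed form, read 12.67, 12.57 and 12.67 in control and 12.92, 12.68 and 12.59 in siGNE cells (0.10, SE 0.10), and its other tested probe sets stood at 0.13 and -0.51, neither passing. ERO1B, the form known from the endocrine pancreas, read 5.04, 5.17 and 6.08 in control and 4.42, 4.84 and 5.21 in siGNE cells. It was lower in every pair, by 0.62, 0.34 and 0.87, and stood just outside the threshold (-0.61, SE 0.13, limma adjusted p 0.0525). TXNDC11, an ER membrane thioredoxin-like protein, read 7.72, 7.67 and 7.21 in control and 7.19, 7.49 and 7.21 in siGNE cells (-0.24, SE 0.13, limma adjusted p 0.275).

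The lectin chaperones gave the largest change of all members and, beside it, 2 genes that did not pass. CLGN (calmegin) is a calnexin homologue best known from the testis, where it serves sperm surface proteins. It read 4.22, 2.89 and 2.91 in control and 6.36, 6.26 and 5.44 in siGNE cells, so every siGNE value was above every control value. The difference was 2.68 (SE 0.25, limma adjusted p 0.0237), nominally 6.42-fold, and 2.14, 3.37 and 2.53 in the pairs. CLGN has a single probe set, and its control mean of 3.34 is near background, so it entered the test only through its siGNE values and the size of the change is uncertain. With values under 4 set to 4 it was 1.95 (limma adjusted p 0.0239).

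CANX (calnexin), the membrane-bound homologue, read 13.04, 13.05 and 13.48 in control and 13.06, 13.01 and 13.48 in siGNE cells (-0.01, SE 0.08, limma adjusted p 0.973). Its other 3 tested probe sets lay between -0.07 and 0.12. CALR (calreticulin), the soluble homologue, read 7.97, 7.94 and 9.38 in control and 7.58, 7.05 and 9.63 in siGNE cells (-0.34, SE 0.23, limma adjusted p 0.360). Its other probe sets, both prone to cross-hybridisation, stood at -0.36 and 0.02 (SE 0.19 and 0.54).

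In ERAD 2 of 10 tested members rose and 0 fell in limma, where 4.11% of all tested genes rose and 5.79% fell. Of 33 other tested ERAD factors, described below, 0 rose and 1 fell in the same fit. No test compared the members with these other factors. Of the 10 members, 4 had an unadjusted p under 0.05 (40.0%, against 32.5% of all tested genes). By the probe sets used, 6 of the 10 were higher in all 3 pairs (60.0% against 27.0%). DERL1, DERL2 and ERLEC1, counted among them, each had another tested probe set that was not. The median of the 10 members was 0.19, as it was for the sensors. HERPUD1, a ubiquitin-like membrane protein that organises the SYVN1 ligase complex, read 10.73, 10.78 and 10.33 in control and 11.79, 11.51 and 10.95 in siGNE cells. All siGNE values were above all control values, and the difference was 0.80 (SE 0.12, limma adjusted p 0.0320), or 1.75-fold. The HERPUD1 window held an ERSE-II and the only CARE match of the members (2.63%, against 3.62% of all windows). Whether either element has a part in its rise was not tested.

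EDEM1, which trims mannose from misfolded glycoproteins and hands them to degradation, read 9.45, 9.65 and 9.99 in control and 9.95, 10.28 and 10.37 in siGNE cells. The groups overlapped, since control array 3 was above siGNE array 1, while every pair was higher in siGNE cells, by 0.49, 0.64 and 0.38 (mean 0.50, SE 0.09, limma adjusted p 0.0438). Its paralogues EDEM2 and EDEM3 both stood at -0.15 (SE 0.09 and 0.11) and did not pass, although all siGNE values of EDEM2 lay below all control values. Whether the paralogues differ from EDEM1 in their response was not tested.

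SEL1L, the adaptor of the SYVN1 ligase, read 9.79, 9.80 and 10.15 in control and 10.31, 9.95 and 10.51 in siGNE cells (0.34, SE 0.11, limma adjusted p 0.108). Its other tested probe sets were on the same side, at 0.38 and 0.43 (limma adjusted p 0.108 and 0.0574). DERL2, a derlin of the retrotranslocation channel, read 10.0005, 9.91 and 9.48 in control and 10.28, 10.24 and 9.72 in siGNE cells (0.28, SE 0.08, limma adjusted p 0.0972). A second DERL2 probe set went against it: it read 6.06, 6.63 and 6.31 in control and 5.41, 5.66 and 5.86 in siGNE cells and fell by 0.69 (SE 0.13, limma adjusted p 0.0431). The direction of DERL2 is therefore unsettled.

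The remaining ERAD members did not pass. DERL1, also a derlin, was higher in every pair (0.25, SE 0.11, limma adjusted p 0.208), as was the glycan-reading lectin ERLEC1 (0.14, SE 0.09), whose siGNE values all lay above its control values. The other tested DERL1 probe sets stood at 0.27 and 0.16, the latter with -0.12 in pair 2. The other tested ERLEC1 probe set stood at 0.03, with -0.11 in pair 3 and overlapping groups. The lectin OS9 read 9.67, 9.72 and 10.18 in control and 9.97, 9.44 and 10.07 in siGNE cells (-0.03, SE 0.14), with its other probe set at 0.00. SELENOS, a selenoprotein that links the channel to the VCP ATPase, stood at 0.13 (SE 0.11).

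For the SEC61 channel, SEC61B read 13.93, 13.86 and 13.62 in control and 14.09, 13.93 and 13.91 in siGNE cells (0.18, SE 0.09, limma adjusted p 0.255). The pore subunit SEC61A1 read 11.14, 11.15 and 11.25 in control and 11.48, 11.31 and 11.17 in siGNE cells (0.14, SE 0.11, limma adjusted p 0.453). Neither passed.

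Probe sets of the same gene did not always agree. Of the tested members 21 had more than 1 tested probe set, and among the 37 tested probe sets not used for these genes, 11 lay on the other side of 0 from the probe set used and 1 more, that of HSPA5, differed in its call. These lay in 9 members, ATF6, HSPA5, DNAJC10, PDIA6, ERO1A, CALR, CANX, DERL2 and OS9. The widest gaps were those of DNAJC10, DERL2, HSPA5 and ERO1A. In each of them the probe set used, which is the brighter by the rule of choice, was the one nearer to or above 0.

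**Figure D3:**
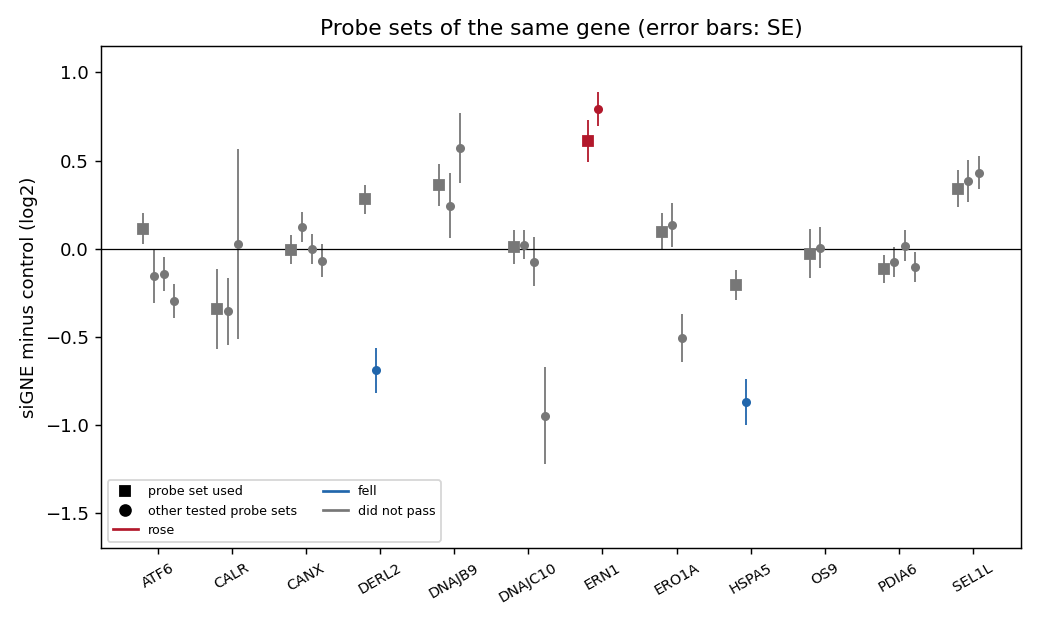
Difference between siGNE and control (log2, vertical axis, bars SE) for every tested probe set of the 9 members whose probe sets disagreed and of ERN1, SEL1L and DNAJB9, whose probe sets lay on the same side. Squares are the probe sets used, circles the others. DERL2 has its used probe set at 0.28 and the other at -0.69, and both ERN1 probe sets are coloured as rises.

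The 7 members with an ERSE had a median difference of -0.21, with 6 of 7 below 0 and XBP1 above it, while the 27 tested members whose window had none had a median of 0.10, with 17 above 0 and 10 below. Of all tested genes 53.0% were below 0. Of the 6 below 0, CANX (-0.01) and CALR (-0.34, SE 0.23) had tested probe sets on both sides of 0. None of the 7 passed, ERO1B being the nearest. Of the 3 members with ERSE-II, HERPUD1 stood at 0.80, HYOU1 at -0.03 and SDF2L1 at -0.25. These are counts over few genes that share arrays, and no test was made of them.

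The level of a pair, the mean of its siGNE and control values, also varied. The range of the 3 pair levels was larger than the siGNE difference in 27 of 36 members, a share (75.0%) near that of all tested genes (71.1%). Pair 3 differed from the others in many members: 12 (33.3%, against 10.4% of all tested genes) were over 0.3 (log2) higher in pair 3 than in the mean of pairs 1 and 2, and 8 (22.2%, against 29.3%) were over 0.3 lower. CALR was higher there by 1.86, PDIA4 by 1.28, ERO1B by 0.78, HYOU1 by 0.66, P4HB by 0.60 and HSP90B1 and DNAJB11 by 0.54 each. CLGN was lower by 0.76, HERPUD1 by 0.56 and DERL1 by 0.53. PDIA4, for example, read 10.43, 10.24 and 11.66 in control and 9.99, 10.33 and 11.41 in siGNE cells, so that both arrays of pair 3 were the high ones.

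The size of this gap depended on the probe set. For CANX it was 0.44 with the probe set used and 1.59, 1.88 and 0.15 with the others, and for SEL1L 0.37 against 1.55 and 1.34. On the same arrays the 3' minus 5' difference of the ACTB control probe sets (log2) was 0.53 and 0.49 in pair 3, against 1.08 to 1.48 on the other 4 arrays, while that of GAPDH stayed between -0.07 and 0.10 on all 6. The part of RNA or labelling quality in the gap between pairs was not tested. The siGNE differences are taken within pairs.

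**Figure D4:**
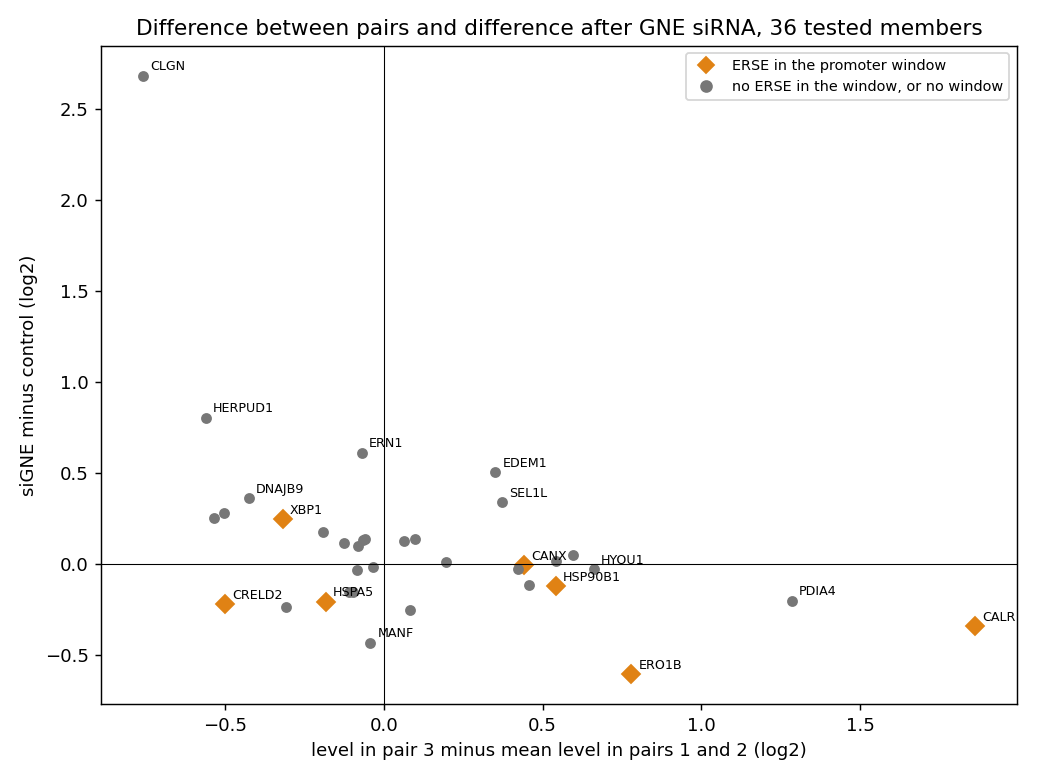
Each point is a tested member, with the level in pair 3 minus the mean level in pairs 1 and 2 (log2) on the horizontal axis and the siGNE minus control difference (log2) on the vertical axis. Diamonds mark the 7 members with an ERSE in the promoter window. CALR and PDIA4 lie far to the right at 1.86 and 1.28 with differences of -0.34 and -0.20, and CLGN lies at the top left.

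A wider list of 109 other genes of the same pathways had 98 tested genes, of which 5 rose and 8 fell in limma (median difference 0.01). These are 5.10% and 8.16%, near the 4.11% and 5.79% of all tested genes. Of the genes listed as the PERK branch, ATF4 (0.70) and its target DDIT3 (2.12) rose, with limma adjusted p of 0.0284 and 0.0131. Whether PERK acted in these rises was not tested. The kinase EIF2AK3 (0.26), its substrate EIF2S1 (0.21) and the phosphatase subunits PPP1R15A (0.43) and PPP1R15B (0.27) were higher in every pair and did not pass.

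Of 10 other sensors and processing factors tested, the ER-bound transcription factor CREB3 rose by 0.61 (SE 0.09, limma adjusted p 0.0336). MBTPS2, the site-2 protease that completes the cutting of ATF6, fell by 0.58 (SE 0.11, limma adjusted p 0.0431). Among 27 other folding factors 2 rose and 4 fell (7.41% and 14.8%, against 4.11% and 5.79% of all tested genes). The sulfhydryl oxidase QSOX1 rose by 0.89 (SE 0.13) and the prolyl isomerase FKBP14 by 0.56 (SE 0.09). The thioredoxin-domain proteins TXNDC16 and TMX3 fell by 1.27 (SE 0.12) and 0.75 (SE 0.15), FKBP9 by 0.70 (SE 0.09), and UGGT1, the folding sensor that returns glycoproteins to calnexin and calreticulin, by 0.48 (SE 0.08). The limma adjusted p of these 6 genes ran from 0.0237 to 0.0475.

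The other ERAD factors, among them further ubiquitin ligases, conjugating enzymes, partners of SYVN1 and VCP with its adaptors, had 33 tested genes with 0 rises and 1 fall in limma (3.03%, against 5.79% of all tested genes), and 7 had an unadjusted p under 0.05 (21.2% against 32.5%). The fall was that of UBXN4, a VCP adaptor of the ER membrane, by 0.71 (SE 0.11, limma adjusted p 0.0339). Among 22 tested factors of ER entry, 0 rose and 2 fell in limma (9.09%, against 5.79% of all tested genes), with 8 at an unadjusted p under 0.05 (36.4% against 32.5%). SSR2 and SSR3, subunits of the translocon-associated complex, fell by 0.48 and 0.53 (SE 0.09 and 0.08, limma adjusted p 0.0430 and 0.0348).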

How the data were processed

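The deposited table holds log2 expression values of 54675 probe sets on 6 Affymetrix arrays, made by the authors with GCRMA (a background model from probe sequence, then log2), per the submitters' processing notes. The GCRMA version is not given in the sources used here, nor the chip definition. No further normalization was applied. GCRMA compresses values near background (array medians 2.96 to 3.02), so changes that start there are of uncertain size. The number of arrays limits the precision.

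Gene names came from GEO's annotation of the platform (41097 with 1 gene, 1801 with several, 11777 with none), with symbols updated by gene identifier through RefSeq (GRCh38.p14). Differences are siGNE minus control from limma 3.58.1 in R 4.3.3 (lmFit, eBayes), with the replicate number as a block (2 residual degrees of freedom), Benjamini-Hochberg adjusted over the 22085 probe sets with a mean above 4, without 62 control probe sets. The threshold for rose and fell was an adjusted p of 0.05. The pairing comes from the title numbers. Deviations from the group means correlated at 0.58, 0.71 and 0.83 for same-numbered arrays and at -0.64 to 0.17 otherwise. The fit was tested on simulated data. The members and lists were chosen with earlier results of these data known. All members are named. Values on every array were planned for those that passed, the sensors and central factors, those with disagreeing probe sets and the 2 largest differences of each role group, and those of PDIA4 were added after they were seen. Of the other pathway genes, those that passed and the PERK branch are named. The alternatives were no block, other filters, a floor, quantile or median scaling, other variance models, array weights, other probe set rules, a threshold of 0.1 and leaving out each pair. A planned look at protein ends was not made, since no protein table was used here.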

Additional observations from a re-analysis of the deposited data

How the results depend on the processing

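The counts of members that passed depended on the fit. The 4 rises became 0 without the replicate block, 0 with no filter on the mean and 0 whichever pair was left out, and the 1 fall became 0 in the same fits and 0 with robust variances. The rises were 3 with robust variances (ERN1 at a limma adjusted p of 0.0512) and 3 with a mean above 6 (CLGN not tested). They were 5 with the mean of a gene's probe sets (SEL1L added). With an adjusted p under 0.1 they were also 5, DERL2 being added (limma adjusted p 0.0972). In limma 5 members had an unadjusted p under 0.05 without the block, 12 with no filter and 6 to 8 with a pair left out, where only 1 residual degree of freedom remains, so a 0 there says little about stability. The falls were 2 with quantile normalization or an adjusted p under 0.1, and 3 with an intensity trend, the probe set of largest variance or the mean of a gene's probe sets. ERO1B passed with quantile normalization, the trend and the mean of probe sets, HSPA5 with the trend and both other probe set rules. DERL2 passed as a fall with the probe set of largest variance. The cause was not tested. With no filter the standard errors changed too, that of MANF from 0.09 to 0.03.

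CLGN, HERPUD1, ERN1, EDEM1 and MANF kept their direction in every alternative run. This was largely fixed in advance and says little about stability. Several settings leave the difference itself unchanged, and the 3 pairs of each gene share a sign. Only ERN1 had more than 1 tested probe set. The ranges were 1.95 to 2.95 for CLGN, 0.68 to 0.89 for HERPUD1, 0.53 to 0.79 for ERN1, 0.44 to 0.57 for EDEM1 and -0.47 to -0.41 for MANF, with limma adjusted p from 0.0096 to 0.172, 0.0128 to 0.231, 0.0172 to 0.261, 0.0229 to 0.311 and 0.0219 to 0.176. The median difference of the members moved by less than its spread over the pairs (SD 0.06).

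Some members that did not pass in the main fit changed sign. With the probe set of largest variance ATF6 stood at -0.16, DNAJC10 at -0.95, ERO1A at -0.51, DERL2 at -0.69 and CALR at 0.025. Of these only DERL2 passed there, as a fall (limma adjusted p 0.0431). With the mean of probe sets ATF6 stood at -0.12, DNAJC10 at -0.25, ERO1A at -0.092, DERL2 at -0.20 and CANX at 0.011. With a pair left out DNAJC10 ran from -0.049 to 0.093, CANX from -0.018 to 0.011 and OS9 from -0.19 to 0.10. Values near 3 are close to background, where differences cannot be sized.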

Other observations

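The 7 members whose promoter window held an ERSE did not move one way between the pairs. Against the mean of pairs 1 and 2 (log2), CALR (1.86), ERO1B (0.78), HSP90B1 (0.54) and CANX (0.44) were higher in pair 3, and CRELD2 (-0.50), XBP1 (-0.32) and HSPA5 (-0.18) were lower. The median was 0.44 for these 7 and -0.04 for the 27 tested members whose window had no ERSE. Some members without an ERSE were also higher there, such as PDIA4 (1.28), P4HB (0.60) and HYOU1 (0.66), the last with ERSE-II and UPRE core matches. No test was made.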
